A study of Mus musculus with 4 samples.

Results

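The genes described here are the odorant receptor genes (Olfr), the vomeronasal receptor genes of both families (Vmn1r and Vmn2r) and the taste receptor genes (Tas1r and Tas2r) that received transposon reads. They were chosen by symbol alone, as every gene in either deposited table named Olfr, Vmn1r, Vmn2r, Tas1r or Tas2r followed by a number. This gave 53 genes of the 5614 listed in all, 36 of them in library 1 and 24 in library 2. The DNA came from neural stem cell-like cells of the mouse (129Sv strain background) that are haploid, with a single chromosome set. They were derived from haploid embryonic stem cells through embryoid bodies and a medium with FGF2, EGF, the BMP receptor inhibitor LDN193189, the activin and TGF-beta receptor inhibitor SB431542 and a ROCK inhibitor (Y-27632, Thiazovivin or both). All 4 samples were treated alike: a gene trap carried by the piggyBac transposon was transfected together with its transposase, and cells were selected with G418. No untreated sample is among them. Insertion junctions were recovered by splinkerette PCR, in which adapters are ligated to the DNA before nested amplification, and were then sequenced. Library 1 and library 2 are each a table of reads per gene that pools 2 samples, so no value has a replicate check and no test between the libraries was possible.

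Chemosensory receptors are G-protein-coupled receptors that detect odorants, pheromones and tastants. Each olfactory neuron expresses a single Olfr gene, Vmn1r and Vmn2r genes are expressed in sensory neurons of the vomeronasal organ, Tas1r genes encode subunits of the sweet and umami receptors, and Tas2r genes encode bitter receptors. The coding sequence of Olfr, Vmn1r and Tas2r genes lies in a single exon, whereas Vmn2r and Tas1r genes have introns and encode a large extracellular ligand-binding domain. These families sit in tandem clusters of similar copies and are normally silent outside sensory tissue, which makes them a view of reads in genes that are not transcribed. Expression in these cells was not measured here, so their silence is background knowledge and not a result.

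The piggyBac transposon inserts at the tetranucleotide TTAA. The windows around the annotated starts of 6 receptor genes are shown to let a reader see these sites, which are in capitals, and how alike tandem copies are. Each window holds 300 bases, 250 before and 50 after the start, from RefSeq on GRCm38.p6, a build of the C57BL/6J strain and later than the mm9 build of the deposited tables. Vmn2r59 had most nonredundant reads of all members (chr7:42058932-42059231, minus strand). Vmn2r60 is its neighbour and closest copy by this window (chr7:42116221-42116520, plus strand). Vmn2r114 was listed (chr17:23312264-23312563, minus strand), and its near-identical copy Vmn2r115 was not (chr17:23343727-23344026, plus strand). Olfr872 was the only Olfr gene in both libraries (chr9:20236912-20237211, plus strand). Tas1r1 was the only taste receptor gene listed (chr4:152038441-152038740, minus strand), and its window has no TTAA.
Vmn2r59: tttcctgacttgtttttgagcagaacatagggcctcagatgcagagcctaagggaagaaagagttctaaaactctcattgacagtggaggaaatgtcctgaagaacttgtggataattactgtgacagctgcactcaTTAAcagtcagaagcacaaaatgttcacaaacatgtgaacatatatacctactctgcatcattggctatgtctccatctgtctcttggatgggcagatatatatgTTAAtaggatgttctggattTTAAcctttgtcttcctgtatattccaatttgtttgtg
Vmn2r60: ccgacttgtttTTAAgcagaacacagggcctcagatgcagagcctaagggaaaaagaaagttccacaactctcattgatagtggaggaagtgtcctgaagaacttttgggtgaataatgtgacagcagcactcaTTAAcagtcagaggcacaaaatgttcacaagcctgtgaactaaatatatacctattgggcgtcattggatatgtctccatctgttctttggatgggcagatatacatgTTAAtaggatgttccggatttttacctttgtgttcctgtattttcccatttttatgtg
Vmn2r114: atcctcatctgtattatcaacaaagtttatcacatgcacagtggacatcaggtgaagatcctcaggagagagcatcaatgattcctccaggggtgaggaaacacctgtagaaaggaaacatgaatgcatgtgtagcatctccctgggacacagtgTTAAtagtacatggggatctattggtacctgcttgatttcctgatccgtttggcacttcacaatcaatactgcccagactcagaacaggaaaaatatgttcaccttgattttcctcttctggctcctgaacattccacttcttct
Vmn2r115: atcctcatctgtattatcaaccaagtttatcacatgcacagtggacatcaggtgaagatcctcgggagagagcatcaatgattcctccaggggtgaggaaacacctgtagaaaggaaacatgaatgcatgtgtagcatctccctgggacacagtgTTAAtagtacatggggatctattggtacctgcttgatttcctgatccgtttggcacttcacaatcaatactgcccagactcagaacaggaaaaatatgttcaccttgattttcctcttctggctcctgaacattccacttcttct
Olfr872: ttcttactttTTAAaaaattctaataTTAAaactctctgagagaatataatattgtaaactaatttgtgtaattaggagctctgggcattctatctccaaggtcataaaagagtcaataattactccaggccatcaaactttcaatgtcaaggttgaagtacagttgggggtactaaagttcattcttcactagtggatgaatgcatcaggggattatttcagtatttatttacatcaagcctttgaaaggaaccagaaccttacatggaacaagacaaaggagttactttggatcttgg
Tas1r1: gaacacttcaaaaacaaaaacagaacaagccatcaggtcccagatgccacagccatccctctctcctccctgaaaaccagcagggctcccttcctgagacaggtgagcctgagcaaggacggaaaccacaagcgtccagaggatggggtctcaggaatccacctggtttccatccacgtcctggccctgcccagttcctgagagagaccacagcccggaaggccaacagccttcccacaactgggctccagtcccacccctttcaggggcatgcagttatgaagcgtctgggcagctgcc
The windows of Vmn2r59 and Vmn2r60 agreed at 265 of 300 bases and those of Vmn2r114 and Vmn2r115 at 298 of 300. The tables give no insertion positions, so no read can be placed at any of these sites.

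Nearly all listed receptor genes belonged to the Vmn2r family. By symbol or synonym the reference annotation holds 1547 receptor genes, and 3.43% of them (53, 95% exact interval 2.58 to 4.46) had at least 1 nonredundant read in either library. Over all 21035 genes with curated mRNAs, 26.6% were listed. Of the 126 Vmn2r genes 46 were listed (36.5%, 28.1 to 45.6), of the 1142 Olfr genes 6 (0.525%, 0.193 to 1.14) and of the 3 Tas1r genes 1. The Vmn1r and Tas2r families were empty. For the 237 Vmn1r genes a limit of 3 counts allows a share of up to 1.27% (upper bound of the exact interval 1.54%). For the 39 Tas2r genes it allows up to 7.69% (9.025%). Intervals and limits cover counting error only and treat genes as independent, and reads of PCR products are not independent molecules.

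In library 1 the 36 listed genes were 32 Vmn2r, 3 Olfr and 1 Tas1r gene, or 2.33% of the annotated receptors beside 19.9% of all genes. In library 2 the 24 listed genes were 20 Vmn2r and 4 Olfr genes, or 1.55% beside 15.0% of all genes. At 2 or more nonredundant reads 6 genes were left in library 1 (0.388% beside 9.19%) and 4 in library 2 (0.259% beside 6.07%), which makes 10 in either library (0.646% beside 12.1%). All 6 in library 1 were Vmn2r genes, and in library 2 there were 3 Vmn2r genes and 1 Olfr gene. At 10 or more reads 1 gene was left in library 1 (0.0646% beside 2.37%) and none in library 2, where 1.40% of all genes reached this minimum, so that either library gave 0.0646% beside 3.56%.

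Vmn2r59 stood apart from every other member by nonredundant reads. Library 1 had 36 nonredundant and 53 redundant reads of this gene, and library 2 had none. Its rank in library 1 was 278 of 4184 genes by nonredundant reads, and it alone held 45.0% of the 80 reads in receptor genes there. Vmn2r59 spans 47.2 kb in the reference annotation. Among 898 genes outside these families with a span within 10% of that, 231 were listed in library 1, 75 had 2 or more reads, 21 had 10 or more and 11 had at least as many as Vmn2r59 (1.22%). Such a read count is therefore also found among genes of this length that are not receptors. The annotation places 2 other loci, Gm7224 and Hmgb1-ps7, inside or across the span of Vmn2r59, and without strand or position its reads cannot be told apart from theirs.

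The next members were far lower. Vmn2r114 had 4 nonredundant and 4 redundant reads in library 1, and Vmn2r86 had 4 and 4 in library 2. Vmn2r57 (3 nonredundant, 8 redundant) and Vmn2r60 (3 and 3) followed in library 1. All of these are putative pheromone receptors of the large-ectodomain family, and each was absent from the table of the other library. At 2 nonredundant reads were Vmn2r35 and Vmn2r75 in library 1 and Vmn2r76, Vmn2r103 and Olfr18 in library 2. The remaining listings rested on 1 nonredundant read.

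In library 1, 26 Vmn2r genes had 1 nonredundant read. They were Vmn2r4 on chromosome 3 and Vmn2r18 on chromosome 5, then Vmn2r19, Vmn2r20, Vmn2r22, Vmn2r25 and Vmn2r26 on chromosome 6. On chromosome 7 they were Vmn2r29, Vmn2r36, Vmn2r38, Vmn2r52, Vmn2r55, Vmn2r56, Vmn2r58, Vmn2r62, Vmn2r65 and Vmn2r70. Vmn2r83 and Vmn2r84 on chromosome 10 and Vmn2r95, Vmn2r99, Vmn2r101, Vmn2r103, Vmn2r109, Vmn2r113 and Vmn2r116 on chromosome 17 complete the group. All but 6 of them also had a single redundant read, the exceptions being Vmn2r4, Vmn2r18 and Vmn2r103 with 2, Vmn2r29 with 4, Vmn2r62 with 6 and Vmn2r70 with 26. In library 2, 17 Vmn2r genes had 1 nonredundant read. These were Vmn2r10 on chromosome 5, Vmn2r19, Vmn2r21 and Vmn2r27 on chromosome 6, and Vmn2r33, Vmn2r35, Vmn2r36, Vmn2r46, Vmn2r52, Vmn2r56, Vmn2r73 and Vmn2r74 on chromosome 7, with Vmn2r82 and Vmn2r87 on chromosome 10 and Vmn2r91, Vmn2r107 and Vmn2r118 on chromosome 17. Redundant reads exceeded 1 in 4 of them, at 5 for Vmn2r33 and Vmn2r56, 6 for Vmn2r46 and 14 for Vmn2r91.

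Of the listed receptor genes, 83.3% in library 1 had exactly 1 nonredundant read (30 of 36, interval 67.2 to 93.6), and 83.3% in library 2 (20 of 24, 62.6 to 95.3). Over all listed genes these shares were 53.7% and 59.7%, values that are not matched for gene length. Among non-receptor genes of 17.7 to 25.3 kb, 279 were listed in library 1, and 57 of them had 2 or more reads. In library 2 these counts were 216 and 31. Among non-receptor genes of 110.9 kb or more they were 1507 and 1068 in library 1, and 1227 and 744 in library 2. The median was 1 read in both libraries for receptor genes and for all genes alike, because a median cannot show a difference when most genes have a single read. Receptor genes took 0.144% of library 1 reads (80 of 55442, 0.114 to 0.180) and 0.0615% of library 2 reads (30 of 48750, 0.0415 to 0.0878). Without Vmn2r59, which decides the first value, the 44 remaining reads were 0.0794% of library 1.

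**Figure D1:**
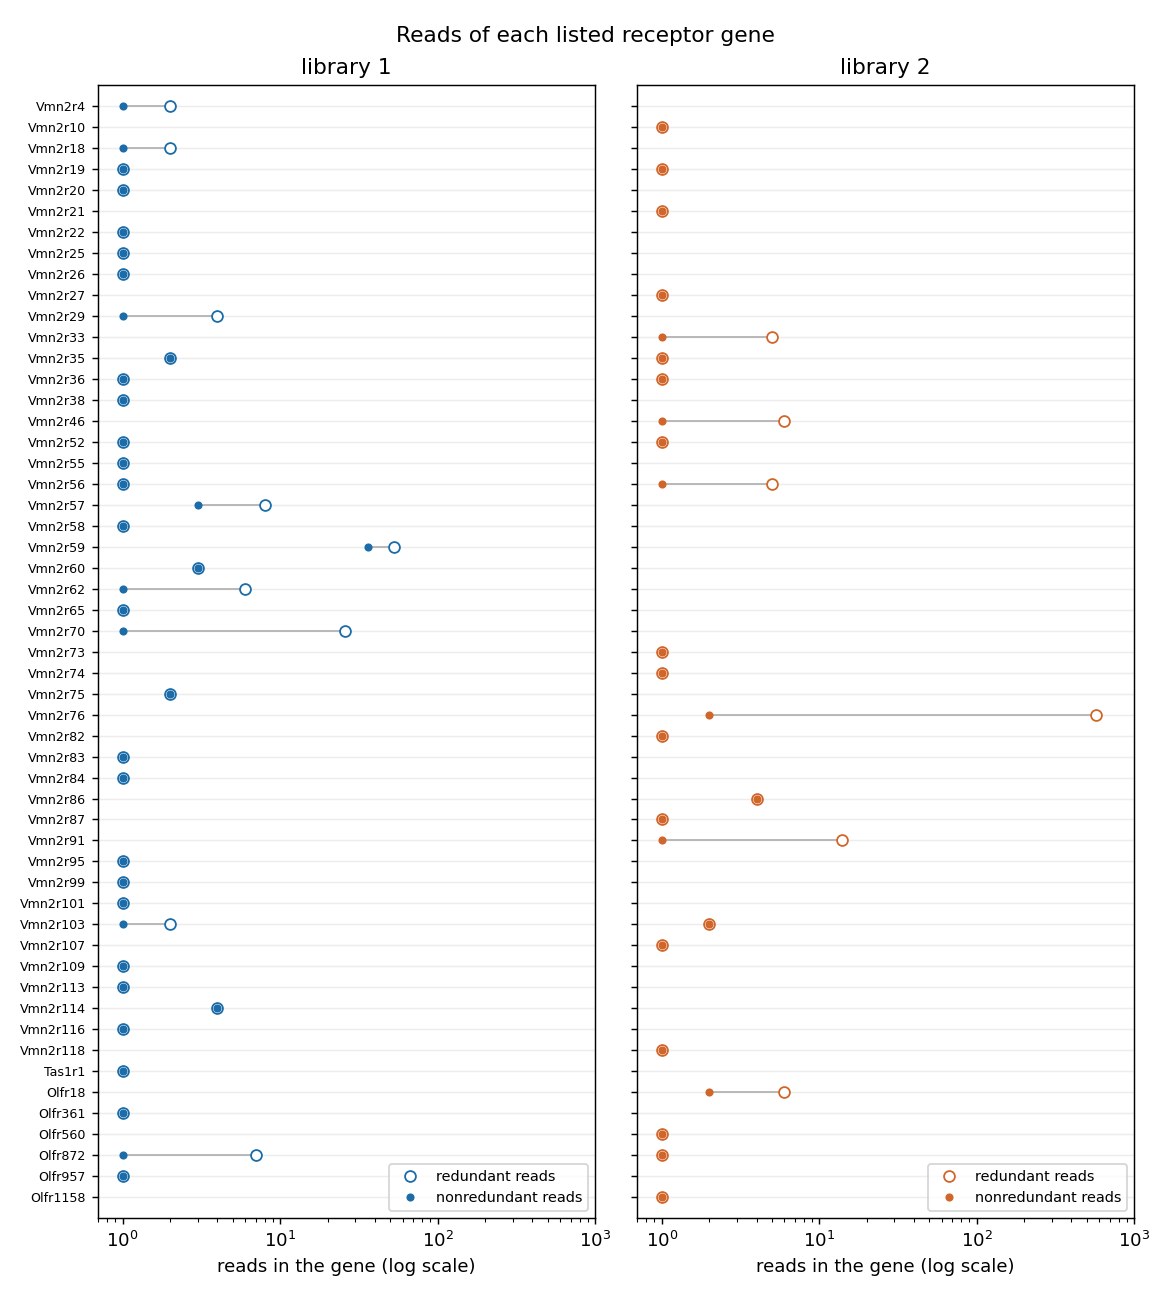
Nonredundant (filled) and redundant (open) reads of the 53 listed receptor genes on a log axis, 1 panel per library; a gene with no point had no reads in that library. Vmn2r59 in library 1 (36 nonredundant reads) and the open point of Vmn2r76 in library 2 (571 redundant reads) lie far from the other genes, most of which sit at 1.

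The 6 Olfr genes all had 1 or 2 nonredundant reads. Olfr18 had 2 nonredundant and 6 redundant reads in library 2. Olfr872 had 1 and 7 in library 1 and 1 and 1 in library 2. Olfr361 and Olfr957 had 1 read of either kind in library 1, and Olfr560 and Olfr1158 had 1 of either kind in library 2. These genes fall into a long and a short group. Olfr18 (22.2 kb) and Olfr872 (23.8 kb) have long annotated spans, while the other 4 span 0.936 to 0.969 kb, close to the family median of 0.950 kb. Of the 1104 Olfr genes with curated mRNAs just 9 span 20 kb or more, and 2 of these 9 were listed. Olfr18 and Olfr872 lie on chromosome 9, as does Olfr957. Olfr361 and Olfr1158 lie on chromosome 2 and Olfr560 on chromosome 7, where Olfr560 lies within the span of another odorant receptor gene, Olfr78. Tas1r1, which encodes a subunit of the umami receptor, had 1 nonredundant and 1 redundant read in library 1, and its span is 10.6 kb.

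By redundant reads the order of the members was different. Vmn2r76 had 2 nonredundant reads in library 2 but 571 redundant ones, or 286 redundant reads per nonredundant read, and it held 90.8% of the 629 redundant reads of receptor genes in that library. Receptor genes took 0.0484% of the redundant reads of library 2, and 0.00446% without Vmn2r76. The library-wide ratio was 26.7. Of the 2412 genes of library 2 with 1 or 2 nonredundant reads, 35 had 100 or more redundant reads and 7 had 571 or more, so Vmn2r76 is among a small group but not alone. Vmn2r70 had 1 nonredundant and 26 redundant reads in library 1, and Vmn2r91 had 1 and 14 in library 2. Vmn2r59 had 1.47 redundant reads per nonredundant read, beside a ratio of 15.8 for the totals of library 1. Ratios of library totals give much weight to genes with very many reads. The highest gene had 77367 of 877870 redundant reads in library 1 and 323039 of 1300140 in library 2. The median over listed genes was 2 redundant reads in each library. Vmn2r59 was not set beside genes of like nonredundant count. At 10 or more redundant reads there were 2 receptor genes in library 1 (Vmn2r59 and Vmn2r70) beside 4.35% of all genes. Library 2 also had 2 (Vmn2r76 and Vmn2r91), beside 3.14% of all genes, and the 4 together compare with 6.62% of all genes in either library. Among members with at most 2 nonredundant reads, both counts were equal in 25 of 32 genes of library 1 (78.1%) and 17 of 23 of library 2 (73.9%), beside 72.2% and 69.1% of all such genes.

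The libraries shared 7 receptor genes, namely Vmn2r19, Vmn2r35, Vmn2r36, Vmn2r52, Vmn2r56, Vmn2r103 and Olfr872. This is 0.452% of annotated receptors, beside 8.25% of all genes in both libraries. The shared genes made up 19.4% of the listed receptor genes of library 1 and 29.2% of those of library 2. Over all listed genes the shares were 41.5% and 54.9%. None of the all-gene values given here for both libraries is matched for gene length. Among 2067 non-receptor genes of 17.7 to 25.3 kb, 279 were listed in library 1, 216 in library 2 and 436 in either. Whether receptor genes were shared less than genes of like length was not tested. Vmn2r35 had 2 reads in library 1 and 1 in library 2, and Vmn2r103 had 1 and 2. The other 5 shared genes had 1 nonredundant read in each library. None reached 2 reads in both libraries, a mark that 3.15% of all genes passed, and none reached 10 in both, which 0.204% of all genes did.

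Along the chromosomes, listed Vmn2r genes were spread over most but not all clusters. A cluster was taken as Vmn2r genes of 1 chromosome whose neighbouring starts lay at most 1 Mb apart. Chromosome 7 held 20 of the 46 listed genes among its 52 annotated ones, chromosome 17 held 11 of 32, chromosome 6 held 7 of 9, chromosome 10 held 5 of 8, chromosome 5 held 2 of 11 and chromosome 3 held 1 of 8. No Vmn2r gene of chromosomes 4, 14 or X was listed. These hold few and short genes, in clusters of 1 and 2 genes on chromosome 4, 2 on chromosome 14 and 1 on X. The median spans of these clusters were 8.40 to 9.80 kb, and 3 of 12 Vmn2r genes under 10 kb were listed. The chromosome 6 cluster from Vmn2r19 to Vmn2r27 had 5 genes listed in library 1 and 3 in library 2, all at 1 nonredundant read, and 7 of its 9 genes (77.8%) in either. In either library 26.6% of all genes were listed, and 33.3% of non-receptor genes spanning 30 to 40 kb. The clusters were not tested against these shares. The largest cluster, 24 genes from Vmn2r29 to Vmn2r52 on chromosome 7, had 7 genes listed (29.2%). The 23 genes from Vmn2r90 to Vmn2r110 on chromosome 17 also had 7 (30.4%), and the 10 genes from Vmn2r8 to Vmn2r17 on chromosome 5 had 1. Counts per cluster are small, and a relation of listing to span between clusters was not tested. The median span was 37.3 kb in the chromosome 6 cluster and 28.2 kb in both the chromosome 17 cluster and the chromosome 3 cluster, where 1 of 8 genes was listed.

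One stretch differed between the libraries in its values. The chromosome 7 cluster from Vmn2r57 to Vmn2r126 has 8 genes. In library 1 it had 44 of the 76 nonredundant reads of the Vmn2r family, with Vmn2r57 at 3, Vmn2r58 at 1, Vmn2r59 at 36, Vmn2r60 at 3 and Vmn2r62 at 1. In library 2 none of its genes was listed. Another gene of this cluster, named Gm9268 in the table of library 1 and Vmn2r126 in the reference, had 1 read there and is not counted among the members. Library 2 had its highest Vmn2r value at Vmn2r86, in a cluster of 4 genes on chromosome 10 with 5 reads in library 2 and 1 in library 1. These stretches were picked after their values were seen, and with 1 pool per library the difference between the libraries was not tested.

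**Figure D2:**
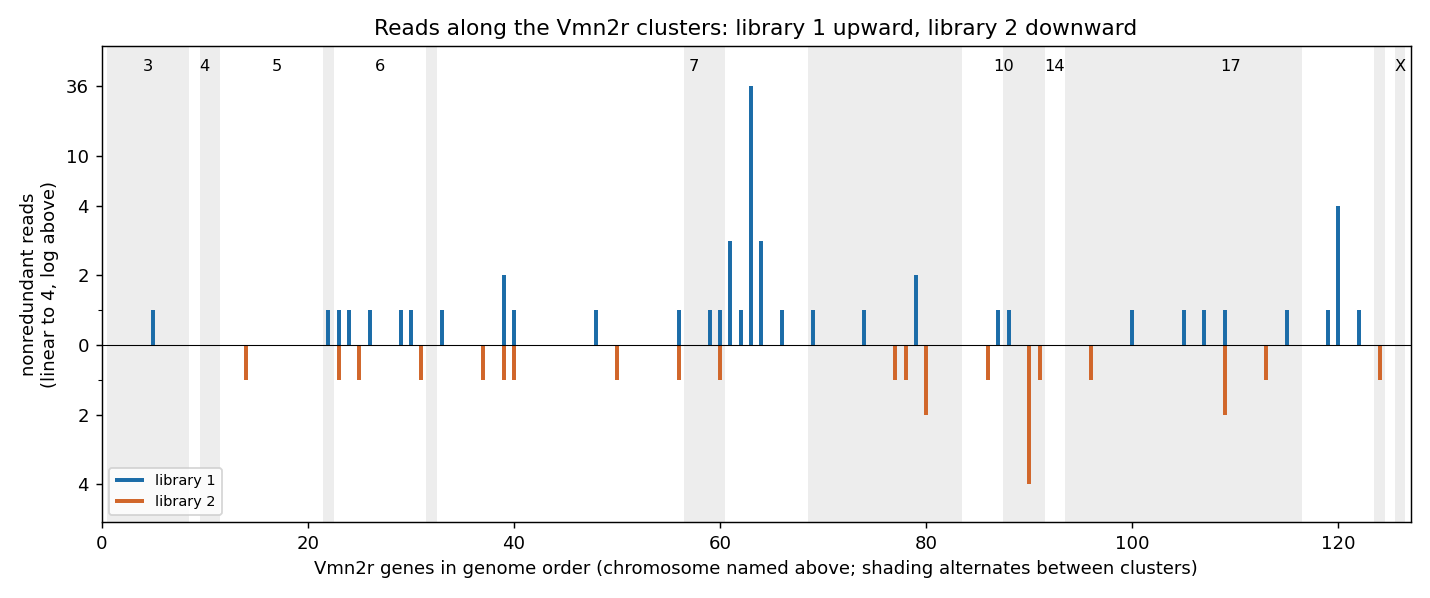
Nonredundant reads of the 126 annotated Vmn2r genes in genome order, library 1 upward and library 2 downward, on an axis that is linear up to 4 and logarithmic above; shading alternates between clusters and the chromosome is named at the top. The stretch around Vmn2r59 on chromosome 7 has reads in library 1 alone, and most other bars have a height of 1. Vmn2r126 is drawn without its 1 read in library 1, which is listed under the name Gm9268.

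The contrast between the families went with the length of their genes in the annotation. The median span was 24.5 kb for 123 Vmn2r genes with curated mRNAs, 0.950 kb for Olfr, 0.924 kb for Vmn1r, 0.936 kb for Tas2r and 17.7 kb for all genes. Few members of the short families are long, with 9 Olfr and 3 Vmn1r genes at 20 kb or more against 73 Vmn2r genes. Within the Vmn2r family the 46 listed genes had a median span of 28.2 kb (8.44 to 79.3 kb) and the 77 others 19.9 kb (8.40 to 143 kb). By bands of span, 3 of 12 Vmn2r genes under 10 kb were listed in either library, 8 of 38 from 10 to 20 kb (21.1%), 14 of 33 from 20 to 30 kb (42.4%), 12 of 24 from 30 to 40 kb and 9 of 16 above that (56.2%). Genes outside the receptor families gave 4.31%, 14.9%, 24.9%, 33.3% and 61.5% in the same bands.

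To set the families beside genes of like length, all genes with curated mRNAs were split into 10 length classes of equal size. The share of non-receptor genes listed in each class was then averaged with the receptors' numbers per class as weights. For all 1495 receptor genes, 2.41% were listed in library 1 (1.69 to 3.32) against 2.38% of other genes of like length, and 1.61% in library 2 (1.03 to 2.38) against 1.86%. In either library the values were 3.55% (2.67 to 4.61) and 3.79%. With 5 or 20 length classes in place of 10, the other genes gave 2.31% to 2.95% in library 1, 1.66% to 2.29% in library 2 and 3.53% to 4.58% in either, all inside the receptors' intervals, and which of the 2 values was higher changed with the classes in library 1 and in either library. At 2 or more reads the receptors stood at 0.669% (0.321 to 1.23) and the other genes at 1.34%. The second value was 1.22% with 20 classes, just inside that interval, and 1.48% with 5 classes, outside it as with 10.

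The families did not share this balance. Among Vmn2r genes 37.4% were listed in either library (28.8 to 46.6) against 25.3% of other genes of like length. By library it was 26.0% (18.5 to 34.7) against 16.8% in library 1 and 16.3% (10.2 to 24.0) against 12.8% in library 2. This surplus was made of genes with a single read. At 2 or more reads 7.32% of Vmn2r genes (3.40 to 13.4) stood against 7.27% of other genes, and at 10 or more 0.813% (0.0206 to 4.45) against 2.10%. Olfr genes lay on the other side, with 0.543% listed in either library (0.200 to 1.18) against 1.89%. In library 1 it was 0.272% (0.0561 to 0.792) against 1.11%, outside the interval, and in library 2 0.362% (0.0988 to 0.925) against 0.894%, inside it. The averaged shares of other genes carry counting error too, which these intervals leave out. The shortest length class held 950 of the 1104 Olfr genes. In either library 4 of these 950 were listed (0.115 to 1.075), beside 10 of 912 other genes (0.527 to 2.007). In each library it was 2 (0.0255 to 0.758) beside 5 (0.178 to 1.275). The intervals overlap, and an Olfr shortfall was not tested with both errors included. These comparisons describe 2 pools of reads. Genes in a tandem cluster are not independent, and the part of similar copies in these values was not tested.

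**Figure D3:**
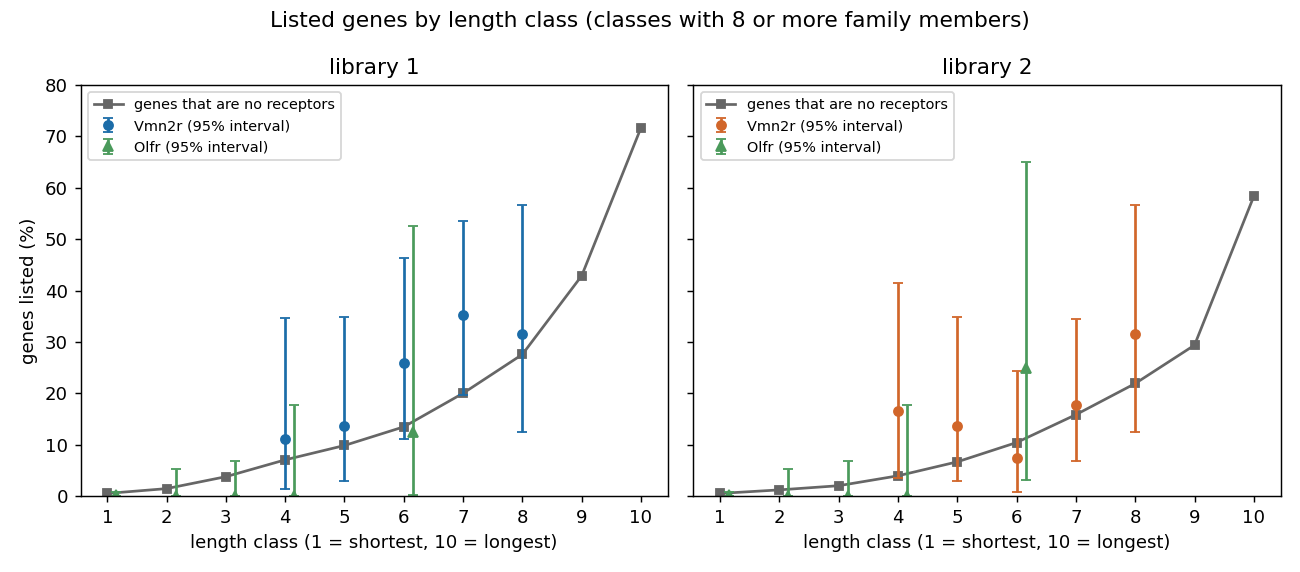
Share of genes listed at 1 or more nonredundant reads by length class, from the shortest class to the longest, for Vmn2r genes (circles), Olfr genes (triangles) and genes outside the receptor families (grey line), 1 panel per library; bars are exact 95% intervals, and family points with under 8 genes in a class are left out. Vmn2r points in library 1 lie above the grey line in the 5 classes shown, with wide intervals, and in library 2 in 4 of the 5.

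Sites for the transposon were common near receptor genes. Of the 53 members, 49 had a window in the promoter table. TTAA, which is its own reverse complement and so reads the same on both strands, occurred in 77.6% of 116 Vmn2r windows (68.9 to 84.8), in 86.3% of 940 Olfr windows (83.9 to 88.4), in 63.9% of 205 Vmn1r windows (56.9 to 70.5) and in 24 of 31 Tas2r windows (77.4%). Over all 27025 genes with a window it occurred in 52.7%. The median GC content of the windows was 38.0% for Vmn2r, 35.0% for Olfr and 36.0% for Vmn1r, against 52.7% over all genes, so receptor windows are richer in A and T. Listed Vmn2r genes had a TTAA in 32 of 43 windows (74.4%, 58.8 to 86.5) and those not among the members in 58 of 73 (79.5%, 68.4 to 88.0). The Vmn1r family, with no gene listed, and the Olfr family, with few, thus had TTAA in more of these windows than genes at large. The windows cover the starts and not the introns where a gene trap can also lie.

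Many Vmn2r genes have near-identical copies, between which the deposited counts could split reads. The window of each Vmn2r gene was aligned with all other Vmn2r windows and the best-scoring one was taken. The median identity to this closest window was 89.7% for 43 listed genes and 92.3% for 73 others, and 13 (30.2%) and 31 (42.5%) of them had a copy at 95% or more. Vmn2r126 is counted among the others, although it had 1 read in library 1 under the name Gm9268. The listed Vmn2r33 matched the unlisted Vmn2r31 at 300 of 300 bases, and Vmn2r62 matched Vmn2r126 at 300 of 300. Among the members with most nonredundant reads, Vmn2r59 had its closest window at 88.3% identity, Vmn2r86 at 93.7% (Vmn2r84), Vmn2r57 at 95.7% (Vmn2r62) and Vmn2r114 at 99.3% (Vmn2r115). Identity was compared at the gene starts alone and not in the introns. Which copy the single reads of such genes came from was not tested. How reads with several matches were treated is not given in the sources used here.

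Other genes were taken from fixed lists of families and pathways that have members in the same senses. None of 15 trace amine-associated receptor genes, a family with odorant receptors among its members, had a read. Of 7 formyl peptide receptor genes just Fpr1 did, with 1 read in library 1. Both families are short (median spans 1.05 and 1.03 kb), though Fpr1 itself spans 7.47 kb. Of 14 olfactory transduction genes 8 were listed (median span 57.6 kb). They were led by the phosphodiesterase gene Pde1c with 2 reads in library 1 and 22 in library 2, followed by the chloride channel gene Ano2 (2 and 3), the adenylyl cyclase gene Adcy3 (4 and 0), the phosphodiesterase gene Pde4a (0 and 2) and the guanylyl cyclase gene Gucy2d (1 and 0). Vomeronasal transduction genes were listed in library 1 alone, 5 of 7. The G-protein gene Gnao1 had 2 reads there, and Ano1, Itpr3, Plcb2 and the vomeronasal channel gene Trpc2 had 1 each.

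Of 13 taste transduction genes 5 were listed, at the same median span as the vomeronasal list (23.7 kb). Pkd1l3, a channel subunit gene studied in sour taste, had 53 reads in library 1 and 1 in library 2, Pkd2l1 had 2 and 5, the cation channel gene Trpm4 had 2 and 0, and Itpr3 and Plcb2, which are in this list and the vomeronasal one, had 1 and 0. Of 20 genes of receptor trafficking and receptor choice (28.8 kb) 7 were listed. The transcription factor gene Ebf2 had 29 and 1 reads, the histone demethylase gene Kdm1a 2 and 22, Ebf1 2 and 2, Ebf3 3 and 1 and Ebf4 1 and 1. Over all genes 26.6% were listed in either library, a share not matched for length. Of non-receptor genes it was 21.1% from 17.7 to 25.3 kb and 30.4% from 25.3 to 37.0 kb. It was 41.9% from 37.0 to 58.7 kb and 57.0% from 58.8 to 110.9 kb. These short lists were not tested against any of these shares.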

How the data were processed

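The authors deposited 2 tables of raw whole-number counts, the nonredundant and the redundant reads of each gene with at least 1 read, without normalization. Each pools the 2 samples whose labels name it. Library 1 held 55442 nonredundant and 877870 redundant reads, library 2 48750 and 1300140. BWA, CASAVA and the build mm9 appear without versions in the submitters' processing notes. The rule that assigns reads to genes and the definition of nonredundant are not given in these sources.

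Genes were matched by transcript, symbol or synonym to RefSeq genes of GRCm38.p6 (4182 of 4184 and 3167 of 3168 matched, all members among them). Its spans and gene order were used, and the coordinates printed are those of the 6 start windows on that build, not positions on mm9. Nonredundant reads were the main measure. Values are counts and shares with exact Clopper-Pearson 95% intervals (scipy 1.17.1). A count of 0 was given the limit of 3 counts. Windows were aligned globally with free end gaps (Biopython 1.88). The scripts were tested on simulated data. By rule, the text names every listed vomeronasal and taste receptor gene, every member with 2 or more nonredundant or 10 or more redundant reads, members in both libraries, and the 5 genes with most reads of each other chemosensory list. Windows were compared in place of proteins, and protein identity was not analysed here. The members and lists were chosen with earlier results of these data known.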

Additional observations from a re-analysis of the deposited data

How the results depend on the processing

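The counts of listed genes depended on the read minimum, by construction. For all receptor genes, library 1 gave 36 at 1 nonredundant read, 6 at 2 and 1 at 10, and 13 and 2 at 2 and 10 redundant reads. Library 2 gave 24, 4 and 0, and 8 and 2. For Vmn2r genes the counts were 32, 6, 1, 12 and 2 in library 1 and 20, 3, 0, 7 and 2 in library 2. For Olfr genes they were 3, 0, 0, 1 and 0 in library 1 and 4, 1, 0, 1 and 0 in library 2. Genes at 2 or more reads in both libraries numbered 0 instead of 7. The share of library 1 reads in receptor genes was 0.0164% of redundant reads and 0.0794% without Vmn2r59, instead of 0.144%. Of the receptor genes of library 1, 63.9% had exactly 1 redundant read. In library 2 the share was 0.0484% of redundant reads, inside the interval around 0.0615%, but 0.00446% of redundant reads without Vmn2r76. In library 1 it was 0.0104% of redundant reads without Vmn2r59. The denominators tried moved the receptors' percent within its counting interval. With 5, 10 or 20 length classes the share of other genes set beside the families, which has no interval of its own, ran from 1.64% to 2.73% for Olfr in either library, above the family's upper bound of 1.18% throughout. For Vmn2r it ran from 16.8% to 17.1% in library 1, below the lower bound of 18.5% throughout, and from 12.5% to 13.1% in library 2, inside the interval. The genes with curated mRNAs, the addition of Gm9268, redundant reads without the top gene and the length classes at 2 or more reads were chosen after seeing the data. Lengths of summed exons and protein identities were not run. No paired analysis was possible because the samples of a library are pooled in its table. For the same reason no replicate could be left out.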

Other observations

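Other tissue-restricted gene families were counted in the same way, beside 26.6% of all genes listed in either library. That share is not matched for length. Median spans were 0.833 kb for Krtap, 1.655 kb for Lce, 3.215 kb for Defb, 4.01 kb for Mup, 4.606 kb for Klk and 7.502 kb for Prl. Of non-receptor genes, 1.096% were listed up to 1.805 kb and 2.425% from there to 4.472 kb. It was 5.417% up to 7.853 kb and 10.09% up to 12.22 kb. The families were not tested against these shares. None of 56 Krtap genes, which encode hair keratin-associated proteins, and none of 21 Lce genes of the skin barrier had a read. A limit of 3 counts allows shares of up to 5.36% and 14.3% (upper bounds of the exact intervals 6.375% and 16.1%). Of 42 Defb genes of antimicrobial defensins 2 were listed (4.76%, 95% interval 0.582 to 16.2), of 26 Klk protease genes 1 (3.85%, 0.0973 to 19.6) and of 25 Prl hormone genes 1 (4.00%, 0.101 to 20.4). Of 12 Spink protease inhibitor genes, whose median span of 11.2 kb is the longest among these families, 2 were listed (16.7%, 2.09 to 48.4). No listed gene of these families had more than 1 nonredundant read in a library. The Mup genes, which encode major urinary proteins that vomeronasal neurons detect, had 3 of 22 listed (13.6%, 2.91 to 34.9) and up to 3 reads in library 1 and 7 in library 2. They too form a tandem cluster of similar copies.

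Genes of the Y chromosome were counted because haploid cells with an X chromosome would not carry them. The labels do not state the sex chromosome of these cells. Of 78 Y-linked genes with curated mRNAs 8 were listed (10.3%, 4.53 to 19.2), 3 in library 1 and 7 in library 2. None had more than 2 nonredundant reads in a library. Kdm5d had 2 in each, Ddx3y and Gm20736 had 2 in library 2, Rbmy had 1 in each, and Usp9y, Uty, Zfy2 and Sly had 1 in a single library. Several of them have related copies on the X chromosome. Receptor genes with more than 2 were Vmn2r59, Vmn2r114, Vmn2r57 and Vmn2r60 in library 1 and Vmn2r86 in library 2. The other 48 members had at most 2. The highest Y-linked value rests on 8 listed genes and cannot separate reads with an insertion from reads without.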
